A study of Homo sapiens with 16 samples.

Results

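The 10 genes described here are the Notch receptor genes NOTCH1, NOTCH2, NOTCH3 and NOTCH4, the ligand genes DLL1, DLL3, DLL4, JAG1 and JAG2, and HES1, a transcription factor gene that Notch signalling activates. They were taken by name from 19970 protein-coding genes on chromosomes 1 to 22 and X of the RefSeq annotation of GRCh38.p14, and all 10 were found there. For each gene, every deposited peak that met the gene record or the 10 kb on either side of it by at least 1 bp was collected from 8 peak lists. The lists come from ChIPmentation, in which the Tn5 enzyme tags antibody-bound chromatin for sequencing, of H3K27me3 and H3K4me3 in TKO cells. H3K27me3 is the silencing mark of the Polycomb system, and H3K4me3 sits at promoters that are active or poised. TKO cells derive from KMS-11, a multiple myeloma line with the t(4;14) translocation, and all samples carry the genotype label KMS-11 WHSC1(+/-), where WHSC1 is another name of the H3K36 methyltransferase gene NSD2. The groups were cells labelled as expressing wild type NSD2 (WT), cells with NSD2 carrying the substitution D1240A, cells with the substitution F1295A, and plain TKO cells, for which the labels name no form. How the forms were expressed, and whether each line was a clone, is not given in the sources used here. The study set the marks of these cells side by side to see the effect of each NSD2 form.

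Notch is a surface receptor that is cut when a ligand of the Delta (DLL) or Jagged (JAG) family on a neighbouring cell binds it. The freed inner part enters the nucleus, joins the DNA-binding protein RBPJ and a Mastermind (MAML) coactivator, and turns on targets such as the HES and HEY repressor genes. In the blood system the pathway is best known for driving T cell fate over B cell fate, and in myeloma for contact between tumour cells and bone marrow stroma.

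Of 16 samples in 12 groups, every form contributed 2 samples for H3K27me3, 1 for H3K4me3 and 1 for IgG. A single list stood for each form and mark, so both H3K27me3 samples of a form shared a list, no value had a replicate error, and no test between forms was possible. For H3K27me3 the number of peaks ran from 5881 (TKO) and 3790 (WT) down to 2188 (D1240A) and 2083 (F1295A), and for H3K4me3 from 7396 to 8239. The read depth is unknown, and a gene without a peak is one without a call in that list. The signal in a peak is the authors' value on a scale that is not given, so a peak is placed below by its percentile by total signal in its own list. A percentile depends on how many weaker peaks its list holds, so percentiles from lists of different length are not on a common scale. As a check of the labelled plasma cell type, 6 or 7 of 8 plasma cell genes had H3K4me3 within 1 kb of a start in each form, among them IRF4, PRDM1 and XBP1, and CD38 had none in any form. SDC1, the gene of the plasma cell surface marker CD138, had H3K27me3 at its start in every form and H3K4me3 in WT and F1295A. None of 4 B cell, 4 T cell, 3 myeloid, 3 stromal and 3 endothelial marker genes had H3K4me3 at a start in any form. Of these, CD4 and COL1A1 had H3K27me3 there in every form, PAX5 and CD79B in WT, CSF1R in TKO, and CDH5 in TKO and F1295A.

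The 250 bases before the start of 5 of these genes are shown first, because they cover the range from a promoter with both marks to a promoter with none. Sequences and starts are those of RefSeq, build GRCh38.p14, read 5′ to 3′ on the strand of the gene, and 8 of the 10 genes were in the table. The first is HES1, at chr3:194135898-194136147 on the plus strand, which lay under H3K27me3 in every form. Capitals mark TGGGAA, the core that RBPJ binds.
HES1: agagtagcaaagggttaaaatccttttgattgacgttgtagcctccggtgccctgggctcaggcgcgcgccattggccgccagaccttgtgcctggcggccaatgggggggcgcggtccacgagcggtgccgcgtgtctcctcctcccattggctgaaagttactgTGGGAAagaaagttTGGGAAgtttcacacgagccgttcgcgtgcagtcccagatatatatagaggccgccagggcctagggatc
The core was searched on both strands, and its longer form GTGGGAA, which contains it, likewise. HES1 held 2 copies of TGGGAA, whose first bases stood 84 and 70 bases before the start, and the one farther from the start was a GTGGGAA. Of 35116 promoters in the table, 20.8% held TGGGAA, 2.9% held it at least 2 times and 5.43% held GTGGGAA. None of the other 7 promoters held it.

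In the next 4 promoters capitals mark CG dinucleotides, since both marks are known to favour promoters rich in CG. NOTCH1 (chr9:136546049-136546298, minus strand) had H3K4me3 in every form, and in WT an H3K27me3 peak covered part of these bases. DLL4 (chr15:40929090-40929339, plus strand) had H3K27me3 in every form and H3K4me3 in the mutants only. NOTCH4 (chr6:32224068-32224317, minus strand) had H3K27me3 in every form, and NOTCH3 (chr19:15200996-15201245, minus strand) had no peak at all.
NOTCH1: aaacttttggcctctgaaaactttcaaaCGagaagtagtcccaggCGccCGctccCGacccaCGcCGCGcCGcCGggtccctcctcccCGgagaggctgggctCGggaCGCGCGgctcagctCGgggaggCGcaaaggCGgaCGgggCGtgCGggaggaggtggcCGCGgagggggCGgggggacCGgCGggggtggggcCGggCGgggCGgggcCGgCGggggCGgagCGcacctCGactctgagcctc
DLL4: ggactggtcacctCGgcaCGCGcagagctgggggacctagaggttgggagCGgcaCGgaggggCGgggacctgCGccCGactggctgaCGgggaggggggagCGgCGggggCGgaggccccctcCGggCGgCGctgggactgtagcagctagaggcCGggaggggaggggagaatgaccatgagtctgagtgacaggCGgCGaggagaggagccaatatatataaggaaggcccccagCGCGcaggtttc
NOTCH4: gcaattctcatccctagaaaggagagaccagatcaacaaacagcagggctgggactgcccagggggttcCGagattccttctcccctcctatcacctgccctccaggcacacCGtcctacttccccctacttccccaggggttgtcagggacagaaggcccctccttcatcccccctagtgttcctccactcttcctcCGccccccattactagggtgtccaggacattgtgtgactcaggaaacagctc
NOTCH3: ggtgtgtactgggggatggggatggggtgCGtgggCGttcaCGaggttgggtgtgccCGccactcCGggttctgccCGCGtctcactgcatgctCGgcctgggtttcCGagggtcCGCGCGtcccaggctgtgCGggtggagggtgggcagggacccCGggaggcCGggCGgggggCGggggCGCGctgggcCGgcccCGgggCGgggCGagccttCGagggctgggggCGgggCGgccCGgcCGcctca
They held 33, 20, 3 and 28 CG dinucleotides in this order. The count was 29 in NOTCH2, 17 in JAG1, 38 in JAG2 and 18 in HES1, against a median of 11 over all promoters of this length. The promoters without a peak over the start, NOTCH3 and JAG2, were thus not poor in CG, while the start of NOTCH4, poor in CG, carried H3K27me3.

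The 10 genes fell into distinct classes by mark. HES1, NOTCH4 and DLL4 carried H3K27me3 over their starts in every form. DLL3 carried it over its lower record end in TKO and WT. DLL1 had it within the record and beside it in TKO and WT, and in the flank alone in F1295A. NOTCH2 and JAG1 had H3K4me3 alone, NOTCH1 had H3K4me3 over its start with H3K27me3 nearby in some forms, NOTCH3 had neither mark, and JAG2 had a single H3K27me3 peak near the edge of its window. H3K27me3 was called at 6 of the 10 genes in TKO, where 18.4% of all protein-coding genes were called by the same rule. The count was 7 in WT (16.1% of all genes), 4 in D1240A (9.36%) and 4 in F1295A (9.93%). H3K4me3 was called at 4 genes in TKO (47.5% of all genes) and 4 in WT (51.4%), and at 5 genes in both D1240A (49.2%) and F1295A (52.1%). The shares of these genes with H3K27me3 lay above the shares of all genes in each list, and those with H3K4me3 lay near or below them. The windows had a median length of 48.5 kb, against 44.2 kb for all genes. H3K27me3 peaks covered 11.8% of the summed windows (TKO), 13.8% (WT), 6.85% (D1240A) and 5.89% (F1295A), against 3.41%, 3.13%, 1.81% and 2.13% of the summed windows of all genes. H3K4me3 covered 2.42%, 4.01%, 5.05% and 5.83% in the same order, against 2.06%, 2.8%, 2.73% and 3.25%. Within 1 kb of the start itself (either record end for DLL1 and DLL3, whose strand was not in the table), H3K27me3 was called at 5 genes in TKO (8.58% of all genes), 6 in WT (8.38%), 3 in D1240A (4.71%) and 3 in F1295A (5.09%). For H3K4me3 the counts at the start were 3 in TKO (40% of all genes), 3 in WT (43.8%), 4 in D1240A (41.8%) and 4 in F1295A (44.6%).

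**Figure D1:**
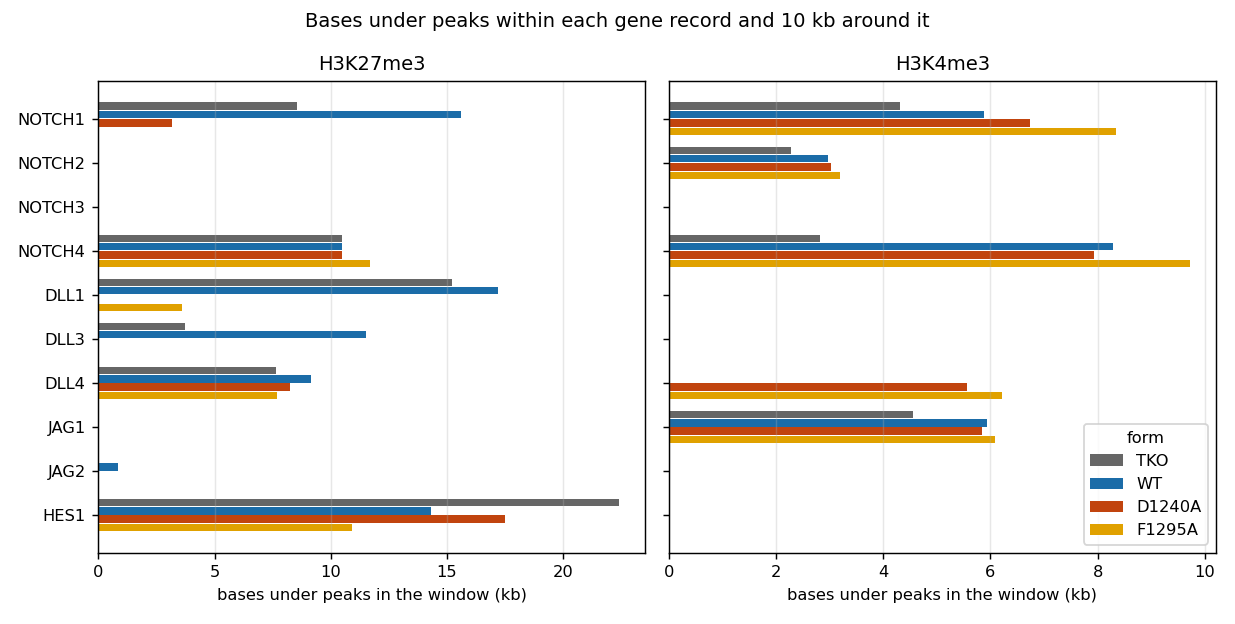
Bases under H3K27me3 peaks (left) and H3K4me3 peaks (right) in kb within each of the 10 gene records and 10 kb around it, with a bar per form from a single list each and no error. HES1 has H3K27me3 bars from 10.9 to 22.4 kb, the longest in TKO and D1240A, and no H3K4me3 bar, while NOTCH2 and JAG1 have H3K4me3 bars only and NOTCH3 has none.

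NOTCH1 encodes the receptor with the best known role in lymphoid development. Its record lies at chr9:136494433-136546048 on the minus strand. An H3K4me3 peak lay over its start in every form, 4.17 kb wide in TKO, 4.71 kb in WT, 5.18 kb in D1240A and 6.96 kb in F1295A. These were weak peaks within their lists, at percentiles 16.4, 19, 30.1 and 39.7 in the same order. The peak reached 1661 bp upstream of the start in TKO, 1624 bp in WT, 2120 bp in D1240A and 3810 bp in F1295A, so it was widest and extended farthest upstream in F1295A. H3K27me3 bordered the same start. In WT a peak of 11.9 kb ran upstream from 117 bp before the start (percentile 54.9), and in TKO a peak of 6.2 kb began 5654 bp before it (percentile 20.4). Neither mutant had an H3K27me3 peak on this side. In WT the H3K27me3 and H3K4me3 peaks shared 1508 bp upstream of the start, while in TKO a gap of 3992 bp lay between them. The lists come from bulk cells, so whether both marks sat on the same chromosome copies cannot be told. A separate H3K27me3 peak lay beyond the far end of NOTCH1, towards the neighbour SEC16A, in TKO (4.19 kb wide), WT (5.77 kb) and D1240A (3.19 kb). In WT it shared 1193 bp with the H3K4me3 peak at the SEC16A start. The H3K27me3 call of NOTCH1 in D1240A rested on this peak alone, which stood at percentile 6.26. F1295A had no H3K27me3 peak in the window.

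NOTCH2, at chr1:119911553-120069662 on the minus strand, encodes the receptor that marginal zone B cells need. It had an H3K4me3 peak over its start in every form, 2.27 kb wide in TKO, 2.96 kb in WT, 3.02 kb in D1240A and 3.19 kb in F1295A, at percentiles 55.2 to 65.7. The upstream edge lay 855 to 1102 bp before the start, so the position hardly differed between forms. No H3K27me3 peak lay within 178 kb of the record in any list. The NOTCH2NL genes on chromosome 1 are near copies of the first part of NOTCH2, so reads at this start can come from them.

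NOTCH3, at chr19:15159038-15200995 on the minus strand, encodes a receptor best known from vascular smooth muscle. It was the only gene of the 10 with no peak in any of the 8 lists, a state shared with 35.8% of all genes. The nearest H3K4me3 peak lay 129 to 130 kb from the record, and the nearest H3K27me3 peak 629 kb or more away.

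NOTCH4, at chr6:32194843-32224067 on the minus strand, encodes a receptor known from endothelium. H3K27me3 covered its start and the first part of the gene in every form, with peaks of 10.5 kb in TKO, WT and D1240A and 11.7 kb in F1295A. The upstream edge lay 943 to 1052 bp before the start and the inner edge 9504 to 10688 bp after it, so these edges varied little among lists of very different length. The peak stood at percentile 65.4 (TKO), 54 (WT), 28.5 (D1240A) and 24.5 (F1295A). Those lists held 5881, 3790, 2188 and 2083 peaks, so lower percentiles in the mutants do not show a lower signal. NOTCH4 had no H3K4me3 within 1 kb of its start. The H3K4me3 peaks in its window lay at the other end, at the starts of the neighbours PBX2 and, except in TKO, GPSM3. They reached into the NOTCH4 record in WT, D1240A and F1295A and stopped 3.27 kb short of it in TKO. The gap between H3K27me3 and the nearest H3K4me3 peak in the record was 16.7 kb in WT, 17.3 kb in D1240A and 15.6 kb in F1295A.

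**Figure D2:**
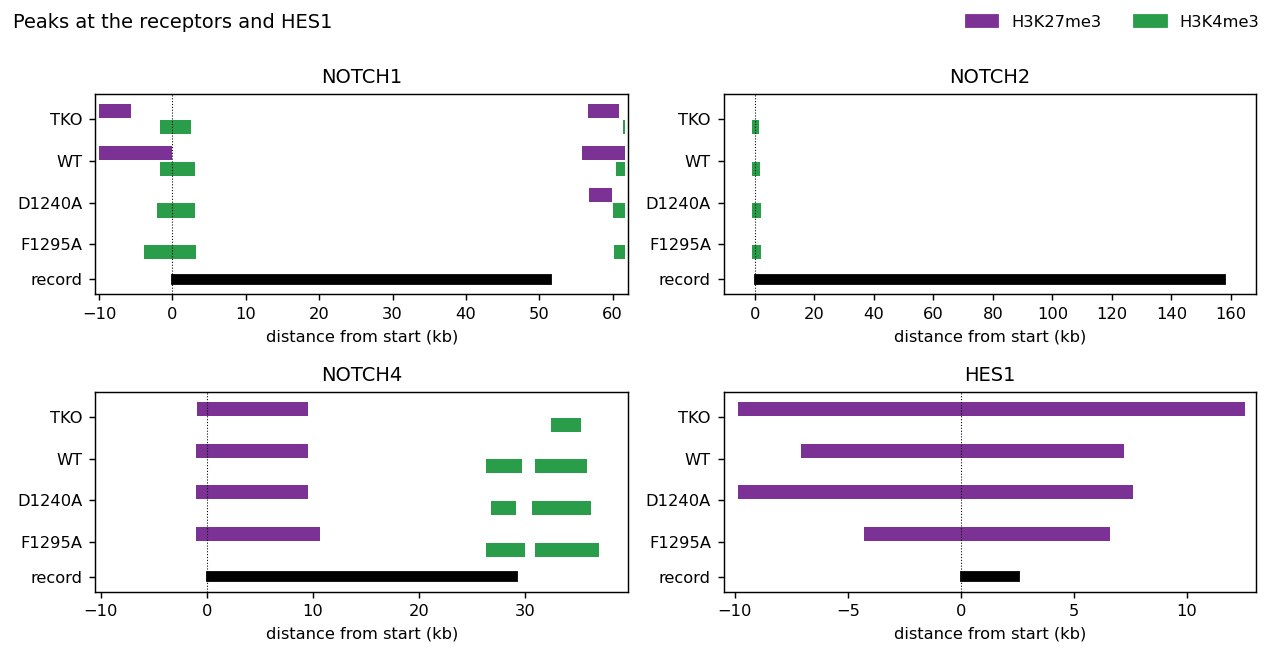
Peaks of H3K27me3 (purple) and H3K4me3 (green) in each form at NOTCH1, NOTCH2, NOTCH4 and HES1, against the distance from the start in kb along the direction of transcription, drawn within 10 kb of the record (black bar). H3K27me3 at NOTCH4 has nearly the same edges in the 4 forms, and at NOTCH1 only the WT peak comes up to the start.

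HES1, at chr3:194136148-194138732 on the plus strand, encodes the repressor that is the best known direct target of Notch. Its whole record, 2.58 kb long, lay inside a single H3K27me3 peak in every form. The peak was 22.7 kb wide in TKO, 14.3 kb in WT, 17.5 kb in D1240A and 10.9 kb in F1295A, which put 99.3%, 63.4%, 77.5% and 48.1% of the window under the mark. It was widest in TKO and narrowest in F1295A. By total signal, in lists of unequal length, it stood at percentile 90.4 of its list (TKO), 87.6 (WT), 74.3 (D1240A) and 56.9 (F1295A). Among H3K27me3 peaks of these 10 genes in each list it ranked first by total signal in TKO, D1240A and F1295A, and in WT it was next to the JAG2 peak, at percentile 87.7. No H3K4me3 peak lay within 346 kb of the record in any form. The promoter printed above, with its 2 RBPJ cores, was therefore under H3K27me3 alone in the 4 H3K27me3 lists.

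DLL1, at chr6:170282206-170291078, encodes a Delta ligand that activates NOTCH1 and NOTCH2. It had 3 H3K27me3 peaks in TKO and 3 in WT, which covered 15.2 kb and 17.2 kb of its 28.9 kb window. The first lay below the record, the second inside it, 4.58 kb wide in TKO and 5.91 kb in WT, and the third began 94 bp past its higher end in TKO and 122 bp past it in WT, within the record of the neighbour FAM120B. F1295A had the first of these only, 5.09 kb wide and at percentile 1.06, among the weakest peaks of its list. D1240A had none, and its nearest H3K27me3 peak lay 204 kb away. H3K27me3 within the DLL1 record was thus called in TKO and WT and in neither mutant. The peak there was weak, at percentile 23.2 in TKO and 15.5 in WT. Of WT peaks of like signal, D1240A met 6.07% and F1295A 10.8% (set out below). H3K4me3 came no closer than 13.7 kb.

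DLL3, at chr19:39498947-39508469, encodes a Delta family member that acts mainly as an inhibitor inside the cell. H3K27me3 covered its lower record end in TKO, in a peak of 3.73 kb (percentile 22.2), and in WT, in a peak of 11.5 kb (percentile 66.8) that held 76.3% of the record. The WT peak contained the whole TKO peak, which overlapped 32.4% of it. In D1240A and F1295A no H3K27me3 peak lay within 884 kb. DLL3 had no H3K4me3 in its window in any form.

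DLL4, at chr15:40929340-40939073 on the plus strand, encodes a Delta ligand of endothelium and thymic stroma. H3K27me3 lay over its start in every form, in peaks of 7.63 kb in TKO, 9.15 kb in WT, 8.26 kb in D1240A and 7.67 kb in F1295A. They began 3151 to 4477 bp before the start and ended 4057 to 4674 bp after it. Within this domain H3K4me3 was called in D1240A, over 5.57 kb, and in F1295A, over 6.22 kb, and in neither TKO nor WT. Both H3K4me3 peaks lay whole inside the H3K27me3 peak and made up 67.4% of it in D1240A and 81.2% in F1295A. The D1240A peak was among the weakest, at percentile 0.947 of its list with a highest signal of 107 against a median of 413 over that list. The F1295A peak stood at percentile 18.6, with a highest signal of 174 against a median of 494. DLL4 was the only gene of the 10 with bases under both marks in either mutant. Such genes made up 0.581% of all genes in D1240A and 0.871% in F1295A. NOTCH1 was the only one in WT (1.28% of all genes), and none of the 10 had shared bases in TKO (0.606%).

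JAG1, at chr20:10637684-10673999 on the minus strand, encodes the Jagged ligand best known from bile duct and heart development. An H3K4me3 peak lay over its start in every form, 4.55 kb wide in TKO, 5.93 kb in WT, 5.85 kb in D1240A and 6.09 kb in F1295A. By total signal, which also grows with width, it ranked above the other H3K4me3 peaks at starts of the 10 genes in each list, at percentiles 68.5, 70.5, 71.6 and 78.1. By highest signal the narrower NOTCH2 peak exceeded it in every list, with 284 against 170 in TKO, 583 against 250 in WT, 568 against 246 in D1240A and 416 against 399 in F1295A. The nearest H3K27me3 peak lay 4750 kb away or more.

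JAG2, at chr14:105140995-105168776 on the minus strand, encodes the Jagged ligand that has been studied most in myeloma cells. No form had a peak of either mark at its start or in its record. A WT peak of H3K27me3, 25.2 kb wide and at percentile 87.7, ended 9152 bp upstream of the start, so that 849 bases of it fell inside the window, and it covered the start of the neighbour NUDT14. The other forms had H3K27me3 over part of the same peak, with the nearest edge 13 kb from the record in TKO, 12.6 kb in D1240A and 24.2 kb in F1295A. The call of JAG2 in WT alone thus turned on where the edge of a shared domain fell relative to the 10 kb limit. H3K4me3 came no closer than 45.8 kb.

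**Figure D3:**
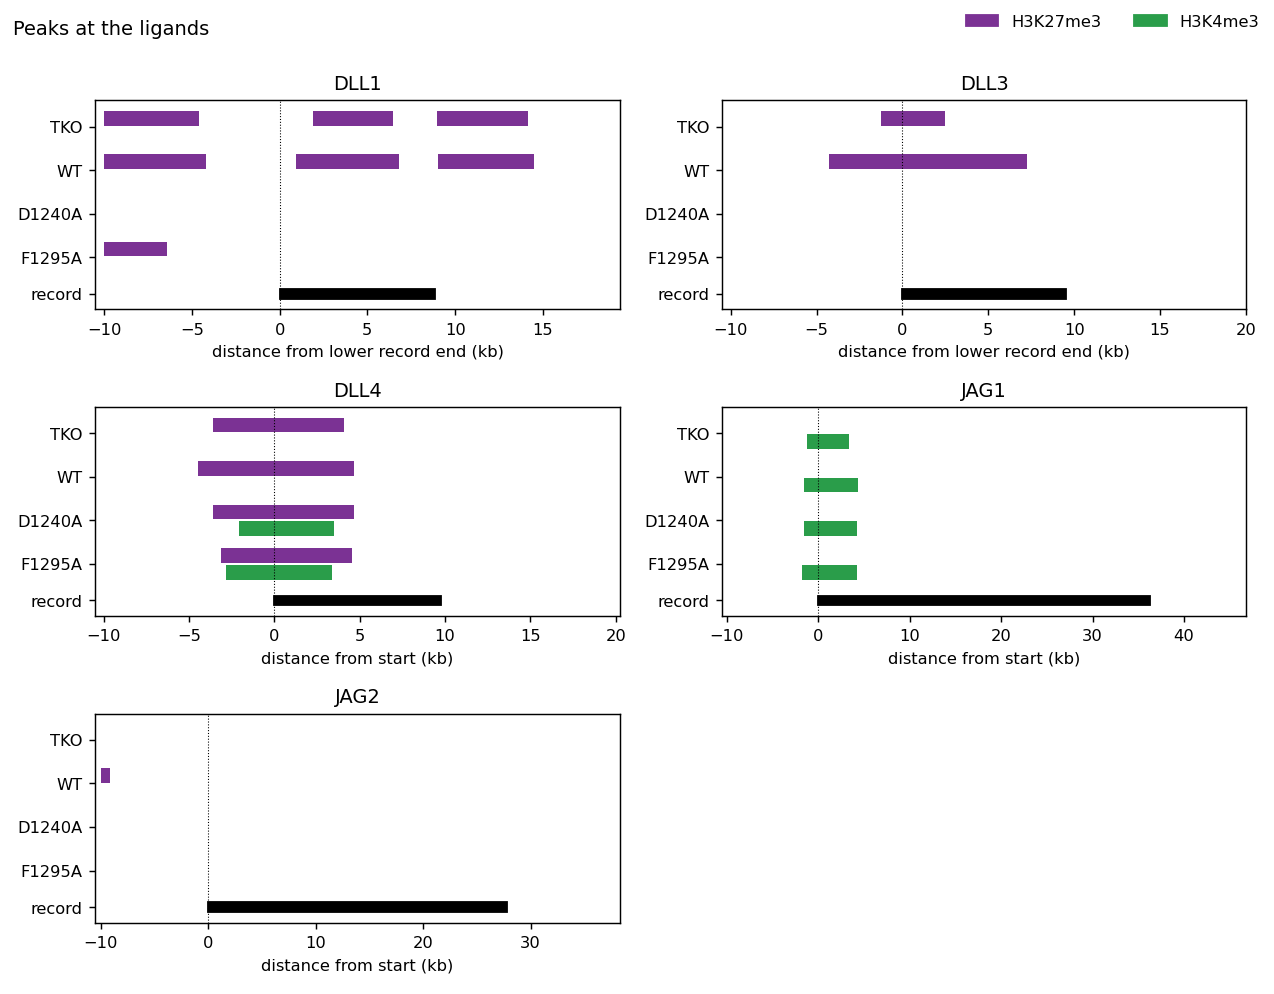
Peaks of H3K27me3 (purple) and H3K4me3 (green) in each form at the 5 ligand genes, drawn within 10 kb of the record (black bar), against the distance in kb from the start along the direction of transcription or, for DLL1 and DLL3, from the lower record end. DLL3 has H3K27me3 in TKO and WT only, and DLL4 has H3K4me3 within its H3K27me3 in D1240A and F1295A only.

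The comparison of plain TKO with WT asks how the marks differ where the wild type form is expressed. By the rule of 10 kb, JAG2 was the only gene of the 10 with H3K27me3 in WT and not TKO (2.04% of all genes), and none had it in TKO and not WT (4.35%). All 10 WT peaks of H3K27me3 at these genes were met by a TKO peak. Averaged over the classes of these peaks by total signal in the WT list (set out below), TKO met 93.5% of WT peaks. TKO peaks covered 99.6% of the WT peak at NOTCH4, 83.4% at DLL4, 32.4% at DLL3 and 52.1% of the one upstream of NOTCH1. H3K4me3 calls did not differ, with 0 genes in WT and not TKO (4.21% of all genes) and 0 in TKO and not WT (0.295%). The start peaks of NOTCH1, NOTCH2 and JAG1 were narrower in TKO than in any other form, as was the TKO list as a whole, with a median width of 2704.5 bp against 3293 bp in WT, 3352.5 bp in D1240A and 3701 bp in F1295A. Within its own list the NOTCH1 start peak stood at width percentile 88.4 in TKO and 82.9 in WT, and that of JAG1 at 91.9 and 92.4. The NOTCH2 start peak stood lower in TKO, at 27.3, than in WT (35.7), D1240A (36.7) and F1295A (32.2). The TKO list was the longest for H3K27me3. With the 2083 strongest peaks of each H3K27me3 list TKO kept HES1 and NOTCH4 alone, while WT kept all 7 genes, so the count of differing genes went from 1 to 5. This cut left out more of the TKO list (5881 peaks) than of the WT list (3790). The share of all genes was not computed for it, so the 5 genes have no background to be read against. Within 1 kb of the start, NOTCH1 took the place of JAG2 as the gene called in WT and not TKO.

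Each substitution form was then set against WT. H3K27me3 was called in WT and not D1240A at DLL1, DLL3 and JAG2 (6.89% of all genes), and in WT and not F1295A at NOTCH1, DLL3 and JAG2 (6.41%). Only genes called in WT could differ in this way, which were 7 of the 10 and 3217 of all genes. Of the 3217, 1376 were not called in D1240A and 1280 not in F1295A, beside 3 of the 7 in each. The counts therefore show no loss particular to these genes. None of the 10 had H3K27me3 in D1240A and not WT (0.145%) or in F1295A and not WT (0.235%). DLL3 was the single gene with H3K27me3 in both TKO and WT and in neither mutant, as were 3.78% of all genes. HES1, NOTCH4 and DLL4 were called in all 4 forms, as were 8.34% of all genes, and NOTCH2, NOTCH3 and JAG1 in none (79.5%). H3K4me3 was called in all 4 forms at NOTCH1, NOTCH2, NOTCH4 and JAG1 (46.6% of all genes) and in none at NOTCH3, DLL1, DLL3, JAG2 and HES1 (47%). For H3K4me3, DLL4 was called in D1240A and not WT (0.24% of all genes) and in F1295A and not WT (1.48%), and none of the 10 was called in WT and not D1240A (2.44%) or in WT and not F1295A (0.726%). At the 7396 strongest peaks of each H3K4me3 list, DLL4 was no longer called in D1240A and still was in F1295A. With the stronger 50% of each list it was called in neither, and with 50 kb around the record TKO and WT had an H3K4me3 peak too. All these comparisons share the WT lists.

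D1240A met 5 of the 10 WT H3K27me3 peaks at these genes and F1295A met 5. Across the whole WT list, split by total signal into 10 equal classes from the weakest (class 1) to the strongest (class 10), the share of peaks met was in general higher in the stronger classes. In class 2, which held the peak inside DLL1, D1240A met 6.07% and F1295A 10.8%. In class 5, which held the DLL1 peak past the higher end of the record, each met 40.4%. In class 6, which held both NOTCH1 peaks, the NOTCH4 peak and the DLL1 peak below the record, the shares were 55.7% and 62.3%. In class 7, that of the DLL3 peak, they were 71.5% and 76.8%, and in class 8, that of the DLL4 peak, 83.1% and 85%. In class 9, with HES1 and JAG2, they were 96% and 96.8%. The shares averaged over the classes of the 10 peaks were 61.6% for D1240A and 65.6% for F1295A, to be read beside the 5 of 10 met in each. NOTCH4 and the upstream NOTCH1 peak lay at nearly the same percentile in WT, and the first was met in both mutants over at least 99.4% of its length while the second was met in neither. The mean signal below which the weakest 1% of each H3K27me3 list lay was 10.3 in WT, 19.1 in D1240A and 18.4 in F1295A, and its part in the calls was not tested.

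**Figure D4:**
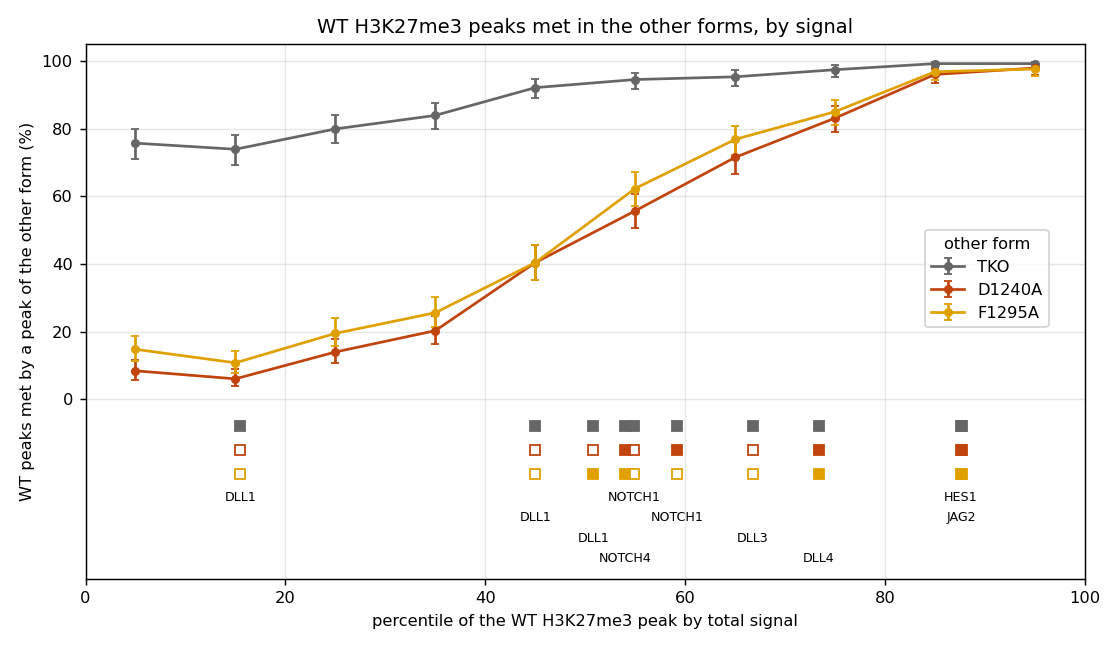
Share of WT H3K27me3 peaks met by a peak of TKO, D1240A or F1295A (vertical axis, %), in 10 equal classes of the WT list by total signal (horizontal axis, percentile), with 95% Clopper-Pearson intervals (counting error only). Squares below mark the 10 WT peaks at these genes, filled where the other form met the peak and open where it did not, with TKO in the upper, D1240A in the middle and F1295A in the lower line. The open squares of the mutants lie at DLL1, DLL3 and NOTCH1, and HES1, DLL4, NOTCH4 and JAG2 are filled in each line.

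The rest of the pathway was read from a list of 61 genes grouped by role. H3K4me3 was called at 41 (TKO), 43 (WT), 42 (D1240A) and 44 (F1295A) of them, and H3K27me3 at 16, 18, 12 and 11, above the shares of all genes given above in each case. The windows of the list were also longer, with a median of 58.9 kb against 44.2 kb. The nuclear complex and the proteases mostly had H3K4me3. RBPJ itself, the coactivator gene MAML1 and the acetyltransferase genes EP300 and CREBBP had it in every form and no H3K27me3 in any, as did ADAM10 and ADAM17, whose products cut the receptor. In the nuclear complex 7 of 9 genes had H3K4me3 in each form, and in the proteases 7 of 9. In the HES, HEY and NRARP group H3K27me3 was called at 5 (TKO), 6 (WT), 4 (D1240A) and 4 (F1295A) of 10 genes. HES2 and HES4 resembled HES1 in having H3K27me3 without H3K4me3 in every form, with 14.1 to 19.9 kb and 9.15 to 19.5 kb marked. HES3 and HES5 had peaks of both marks in their windows in every form, and HES6, HES7 and HEY1 had H3K4me3 alone. Not all of these H3K4me3 peaks lay at the gene's own start. In this group H3K4me3 was called at 5 genes in TKO and 6 in each other form, but within 1 kb of a start at 3 and 4. LFNG, which encodes a fringe enzyme that adds sugars to Notch, had 14.6 kb of H3K27me3 in TKO, 25 kb in WT, 19.5 kb in D1240A and 19.7 kb in F1295A, and NEURL1, whose product acts on ligand uptake, had 49, 44.7, 37.6 and 30.8 kb.

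H3K27me3 was called in some forms and not in others at 8 genes of the list, or 13.1%, against 12.2% of all genes, and in all 4 forms at 11. H3K4me3 was so at 3 genes, or 4.92%, against 6.38% of all genes. Among the 10 genes the counts were 4 for H3K27me3 (NOTCH1, DLL1, DLL3 and JAG2) and 1 for H3K4me3 (DLL4). A gene called in no form cannot differ, and for H3K27me3 these were 3 of the 10, against 79.5% of all genes. Among those of the 10 with any H3K27me3 call, 4 differed and 3 were called in all 4 forms. Over all genes 2434 differed and 1665 were called in all 4 forms. H3K27me3 was called in WT alone at the fringe gene MFNG (4.24 kb), the ligand-like gene DLK2 (3.13 kb) and NRARP (3.54 kb), whose product limits Notch signalling. It was called in TKO and WT and in neither mutant at HEYL (13.6 kb in TKO and 7.1 kb in WT), at CIRSR, a corepressor gene also known as CIR1 (6.24 and 4.79 kb), and at DTX3, a Deltex ubiquitin ligase gene (1.04 and 0.507 kb). NCSTN, a gamma-secretase subunit gene, had H3K27me3 in TKO alone (3.85 kb), and not within 1 kb of its start. The coactivator gene MAML3 had H3K27me3 in TKO (5.32 kb), WT (4.54 kb) and D1240A (4.92 kb) and not F1295A. Not all of these H3K27me3 calls lay at a start. In WT, H3K27me3 was called at 2 genes in the group of MFNG, 3 in that of DTX3 and 3 in that of CIRSR. Within 1 kb of a start the WT counts for these groups were 1, 2 and 1. In the group of HEYL and NRARP they were 6 and 5, and in that of MAML3 1 and 1. MFNG, DTX3, NCSTN and MAML3 also had H3K4me3 in their windows in every form. H3K4me3 differed at DTX4, called in WT (2.04 kb) and F1295A (2.23 kb), at HEY2, called in WT (4.34 kb), D1240A (4.59 kb) and F1295A (4.51 kb) and not TKO, and at the corepressor gene TLE2, called in F1295A alone (3.37 kb). Of 12 corepressor genes, 11 had H3K4me3 in the window in F1295A and 10 had it within 1 kb of a start.

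**Figure D5:**
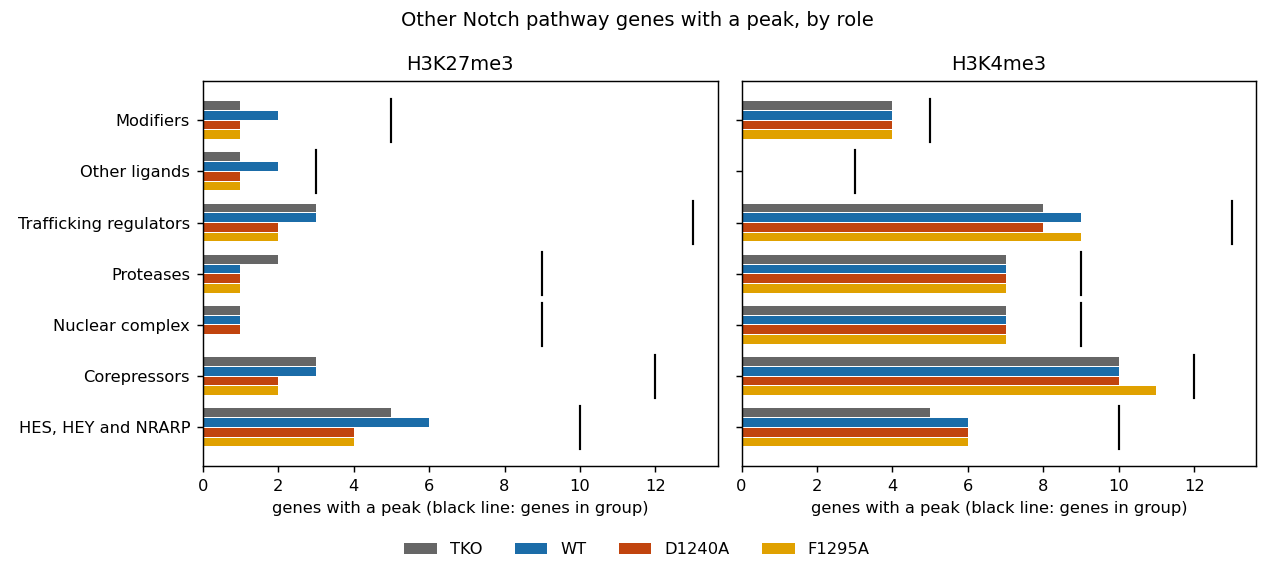
Number of genes with an H3K27me3 peak (left) or H3K4me3 peak (right) within the gene record and 10 kb around it, for 7 groups of the other Notch pathway genes, with a bar per form and a black line at the number of genes in the group. H3K27me3 bars are longest relative to group size for the other ligands and for HES, HEY and NRARP, and the nuclear complex and proteases have 7 of 9 genes with H3K4me3 in each form.

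Likeness to the 10 genes was measured as the Euclidean distance between the shares of the window under peaks in the 8 lists, over the 61 genes of the list. The gene nearest to HES1 was HES4 (distance 0.388), that nearest to NOTCH1 was MFNG (0.181) and that nearest to NOTCH4 and DLL4 was the gamma-secretase gene APH1A (0.249 and 0.275). That likeness is of window coverage only, since APH1A had H3K4me3 within 1 kb of a start in every form and no H3K27me3 there. TLE2 was nearest to DLL1 (0.298), NEURL1B to DLL3 (0.242) and TLE3 to JAG1 (0.0152). JAG2, with 1.78% of its window marked in WT, was nearest to genes without any peak, such as APH1B and DNER (0.0178). The window of JAG1 was mostly unmarked in every list, with at most 10.8% under H3K4me3.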

How the data were processed

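H3K27me3 and H3K4me3 were profiled by ChIPmentation, and the deposited data used here are 8 peak lists. Per the submitters' processing notes, GRCh38 was the build and the tools were SEACR 1.3, Bowtie2 2.4.5, Trimmomatic 0.36 and FastQC 0.11.4. How SEACR was run (its mode, control or threshold) is not given in the sources used here. Each deposited peak has a total and a highest signal (coverage) as the authors wrote them, with a scale that is not given. Both replicates of H3K27me3 in a form lead to 1 list per the labels, and how they were combined is unknown. The highest signal, in 4 value columns, was left out for H3K27me3. IgG samples were not analysed here. Read depth is unknown.

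Peaks were matched to RefSeq gene records (GRCh38.p14) with 10 kb on either side and a minimum overlap of 1 bp, in Python 3.11.15 with numpy 2.4.6, pandas 2.3.3, scipy 1.17.1 and matplotlib 3.10.9. Starts came from the RefSeq promoter table, which gave them for 15811 of 19970 protein-coding genes, and both record ends were used for the rest. Intervals are exact (Clopper-Pearson) at 95% and cover counting error only. All 61 entries of the pathway list matched, CIR1 as CIRSR through its older symbol. All 10 genes are named, together with the list genes whose calls differed between forms, the list gene nearest to each by pattern (that of NOTCH2 is not reported here, and NOTCH3, with no peak, has none), and examples of groups chosen after their values were seen. The genes and lists were chosen with earlier results of these data known. The matching was tested on simulated data. Alternatives changed the window, the peaks kept and the overlap required.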

Additional observations from a re-analysis of the deposited data

How the results depend on the processing

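No paired analysis was possible because both numbered H3K27me3 samples of a form share a list, and for the same reason no sample could be left out. Of 72 counts of the 10 genes with a peak under the alternatives, 63 stayed within 1.5 times the main count, and of 54 counts of genes that differed from WT, 39 did. Keeping the stronger 50% of each list gave H3K27me3 at 2 genes in TKO, 1 in D1240A and 1 in F1295A, H3K4me3 at 3 in D1240A and 3 in F1295A, and genes differing from WT of 5 in TKO, 6 in D1240A and 6 in F1295A for H3K27me3 and 1 in TKO for H3K4me3. Equal peak numbers gave H3K27me3 at 2 genes in TKO, with 5 differing from WT, and 0 differing for H3K4me3 in D1240A. A window of 50 kb gave H3K4me3 at 7 genes in TKO, 8 in WT and 8 in F1295A, with genes differing from WT of 0 in TKO and 1 in F1295A for H3K27me3, and 1 in TKO and 0 in F1295A for H3K4me3. The gene record alone gave 0 for H3K27me3 and 1 for H3K4me3 in TKO. Requiring 1 kb of the window, or 50% of a peak inside it, or leaving out peaks at the start of another gene (chosen after seeing the data), gave 0 differing genes for H3K27me3 in TKO, since the JAG2 call ended. Peaks at least 1 kb wide moved no count. An equal count need not be the same gene. Among the alternatives, the share of all genes was computed only for calls within 1 kb of the start. Within 1 kb of the start, JAG2 dropped out of the H3K27me3 differences from WT, and NOTCH1 came in for TKO and D1240A and DLL1 for F1295A. For H3K4me3 the differing gene was DLL4 in the mutants, but NOTCH4 with the stronger 50% of each list and, in D1240A, JAG2 with 50 kb. DLL3 had H3K27me3 in WT and in neither mutant under each alternative run, and DLL1 in WT and not D1240A. HES1 kept its H3K27me3 call in every form under each alternative. For the 61 genes of the list, 66 of 72 counts stayed within 1.5 times, and those of H3K27me3 ranged from 9 to 24 in TKO, 11 to 23 in WT, 8 to 16 in D1240A and 4 to 14 in F1295A. The unknown depth, the unknown threshold and the single list per form limit every comparison.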

Other observations

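The NOTCH2NL genes NOTCH2NLA, NOTCH2NLB, NOTCH2NLC and NOTCH2NLR, near copies of the first part of NOTCH2 on the same chromosome, each had 1 H3K4me3 peak over a start in every form and no H3K27me3 peak in their windows. The H3K4me3 peak covered 4.08 kb in TKO, 4.83 kb in WT, 4.62 kb in D1240A and 5.83 kb in F1295A at NOTCH2NLA. At NOTCH2NLR it covered 2.94, 2.98, 3.15 and 2.46 kb in the same order. How reads that match several copies were treated is not given in the sources used here, so these values and those of NOTCH2 are uncertain.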
